A study of Mus musculus with 4 samples.

Results

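The 7 genes described here, Cd74, H2-Aa, H2-Ab1, H2-Eb1, H2-DMa, H2-Ob and Ciita, serve antigen presentation by major histocompatibility complex (MHC) class II molecules. They were taken by symbol from the array's annotation, using probe sets that carry a single gene symbol, and all 7 were found among the 18820 genes so measured. Each was read by 1 probe set. The study infused saline or 1 of 3 short-chain fatty acids into the cecum of mice and profiled liver RNA. The animals were male C57Bl/6J mice of 16 to 17 weeks that had been on a palm oil version of a semi-synthetic diet for 6 weeks and had a cecal catheter. The control group received phosphate-buffered saline. The other groups received sodium acetate, sodium propionate or sodium butyrate, each labelled with carbon-13, at 0.3 M and 0.2 ml/h, which made 2.4 mmol/h/kg, for 6 h. RNA of 6 control, 6 acetate, 6 propionate and 4 butyrate mice was combined into 1 pool per group and each pool was hybridized to 1 array, so there were no replicates, no p-value could be computed, and no difference below has a replicate check.

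MHC class II molecules display peptides from ingested or internalized proteins to CD4+ T cells. An alpha and a beta chain assemble in the endoplasmic reticulum around the invariant chain, travel to endosomes where proteases cut the invariant chain, and receive a peptide with the help of the DM heterodimer, which the DO heterodimer restrains. Transcription of most of these genes depends in large part on the transactivator Ciita. Ciita binds no DNA itself and is recruited by factors that sit on a shared promoter module of X and Y boxes. In the liver, class II is carried by dendritic cells, B cells, Kupffer cells, other macrophages and, at lower levels, sinusoidal endothelium, while hepatocytes show little of it at rest.

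The chain, chaperone and invariant chain genes were higher in each acid pool than in the control pool, by modest amounts. The array values are log2 expression per probe set after RMA, so a difference of 1 is a doubling. With propionate the ratio to control reached 1.55-fold for H2-Aa, 1.44-fold for H2-Eb1, 1.36-fold for Cd74 and 1.31-fold for H2-Ab1. H2-DMa differed by 1.17-fold. H2-Ob and Ciita lay within 1.11-fold of control in all 3 acid pools. For 6 of the 7 genes the control pool held the lowest of the 4 values, which was so for 24% of all 18820 genes. The 3 comparisons with control share that 1 array.

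Promoter sequence from RefSeq's table (GRCm38.p6) was searched for H2-Aa, H2-Eb1, H2-Ob and H2-DMa among the 7. Among their relatives it was searched for H2-Oa, H2-Eb2, H2-DMb1 and H2-DMb2. Cd74, on another chromosome, was left out of the search, and no sequence was at hand for H2-Ab1 or Ciita. H2-Aa, H2-Eb1 and H2-Ob are shown. They show the shared promoter module in 2 genes with larger ratios to control and in 1, H2-Ob, that lay at most 1.11-fold above it. H2-Ob values were near background, so its small ratios have no clear reading. Each is the 150 bases before the transcription start, 5′ to 3′ on the gene's strand, and the capitals mark GCAAC, part of many X boxes, and TGATTGG, the core of the Y box, which holds the reverse complement of CCAAT. The positions are chr17:34287824-34287973 on the minus strand for H2-Aa, chr17:34305717-34305866 on the plus strand for H2-Eb1 and chr17:34238755-34238904 on the plus strand for H2-Ob.
H2-Aa: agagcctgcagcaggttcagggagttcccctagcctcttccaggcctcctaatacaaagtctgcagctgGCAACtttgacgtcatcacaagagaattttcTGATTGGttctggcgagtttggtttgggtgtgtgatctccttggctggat
H2-Eb1: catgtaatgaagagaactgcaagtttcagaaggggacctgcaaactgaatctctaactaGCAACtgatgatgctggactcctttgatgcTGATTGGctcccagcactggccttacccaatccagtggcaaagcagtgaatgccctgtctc
H2-Ob: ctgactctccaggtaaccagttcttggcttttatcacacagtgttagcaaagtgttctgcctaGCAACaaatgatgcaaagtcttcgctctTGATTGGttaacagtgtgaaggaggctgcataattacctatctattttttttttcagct

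The start of GCAAC lay 31 bases before the start of TGATTGG in H2-Aa, 30 in H2-Eb1 and 28 in H2-Ob. Over windows from 250 bases before to 50 after the start, TGATTGG was found on either strand in 7.82% of 32851 windows of all genes. The pair, on the same strand with starts at most 40 bases apart, was found in 0.301%. Of the 9 windows of these 8 class II genes, 7 held TGATTGG and 5 held the pair, the other two being those of H2-Oa and H2-Eb2. Neither window of H2-DMa, which has 2 annotated starts there, held these letters. The letters were settled with these windows in view, and a match is a description of sequence and not evidence of binding.

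Cd74 encodes the invariant chain, which fills the peptide groove until the endosome. Its log2 level was 8.86 in the control pool, 9.11 with acetate, 9.30 with propionate and 9.32 with butyrate. All 3 acid pools were above control, with propionate and butyrate nearly level at ratios of 0.44 and 0.46 and acetate at 0.25.

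H2-Aa encodes the alpha chain of I-A, the class II molecule that C57BL/6 mice display. Its level was 7.98 in control, 8.40 with acetate, 8.61 with propionate and 8.51 with butyrate. It had the highest ratio of the 7 genes with every acid, at 0.42, 0.63 and 0.53 on the log2 scale. With propionate it ranked 58th from the top among the 9410 genes whose mean level reached a floor of 5.55, the median over genes of the mean over the 4 arrays. Its ratio there was the only one of the 21 against control to pass 1.5-fold (0.58 on the log2 scale), and the nearest below that line was H2-Aa with butyrate, at 1.45-fold.

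H2-Ab1 encodes the beta chain that pairs with H2-Aa. Its level was 8.03 in control, 8.20 with acetate, 8.43 with propionate and 8.32 with butyrate. The order of pools was that of H2-Aa, but the ratios of 0.17, 0.39 and 0.29 were smaller. The ratio of H2-Aa exceeded that of H2-Ab1 by 0.25 with acetate, 0.24 with propionate and 0.25 with butyrate, 3 values that rest on the same control array.

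H2-Eb1 encodes the beta chain of I-E. C57BL/6 mice lack surface I-E because the gene of its alpha chain, H2-Ea, carries a deletion, and RefSeq lists H2-Ea as a transcribed pseudogene. The H2-Eb1 level was 7.62 in control, 7.96 with acetate, 8.14 with propionate and 8.02 with butyrate, which gave ratios of 0.34, 0.52 and 0.40. H2-Ea was below the floor in all pools, between 2.94 in the control pool and 3.10 with butyrate.

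H2-DMa encodes the alpha chain of DM, the endosomal catalyst of peptide exchange. Its level was 6.27 in control, 6.44 with acetate, 6.49 with propionate and 6.49 with butyrate. The acid pools lay together, 0.17 to 0.22 above control. The probe set for the DM beta chain is annotated to both H2-DMb1 and H2-DMb2 and entered no comparison.

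H2-Ob encodes the beta chain of DO, which is found mainly in B cells and some dendritic cells. Its level was 5.29 in control, 5.44 with acetate, 5.37 with propionate and 5.34 with butyrate, below the floor throughout. Its order differed from that of the classical chains, with acetate highest. Ciita stood at 4.79, 4.91, 4.82 and 4.74 in the same order of pools, also below the floor. It was 0.12 above control with acetate, 0.024 above with propionate and -0.057 from control with butyrate, and with cyclic loess normalization the propionate value was -0.019. Ratios of these genes are ratios of values near background, so a small ratio in either has no clear reading.

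**Figure D1:**
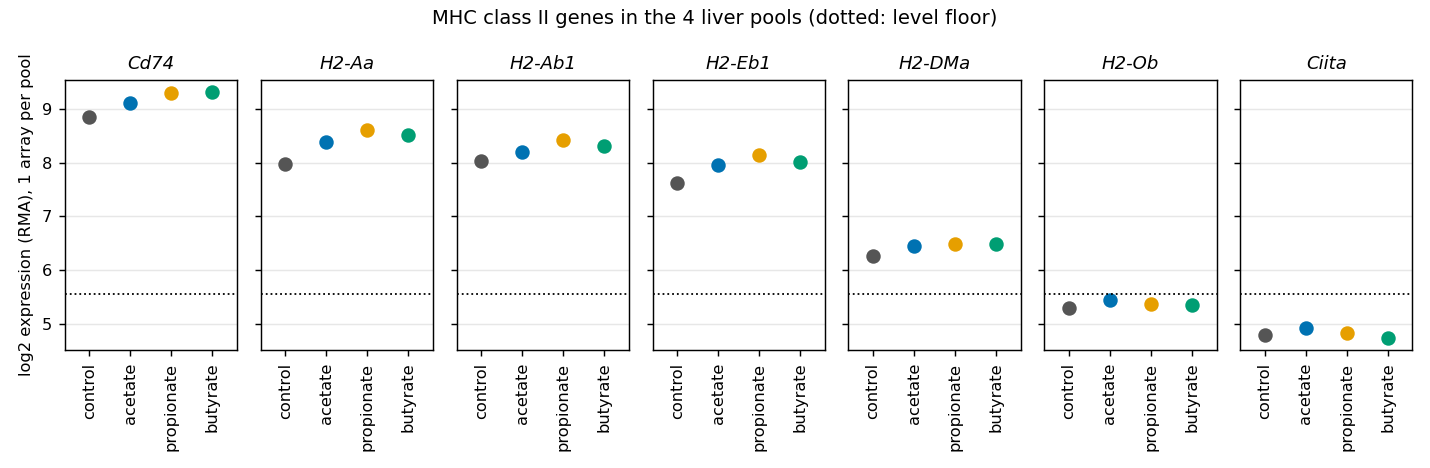
Log2 expression after RMA (vertical axis) of the 7 class II genes in the control, acetate, propionate and butyrate pools (horizontal axis), 1 point for each array, with the level floor of 5.55 as a dotted line. Cd74, H2-Aa, H2-Ab1, H2-Eb1 and H2-DMa lie lowest in the control pool, and H2-Ob and Ciita lie below the floor in all 4 pools; heights of different genes are not comparable.

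Set against all genes measured, the class II genes other than H2-Ob and Ciita stood toward the upper end of the ratios. Among all 18820 genes, H2-Ob ranked 3352nd, 5409th and 6510th from the top with acetate, propionate and butyrate. Ciita ranked 4242nd, 7763rd and 12238th. With acetate, 2 of 7 were at least 1.2-fold above control (6.73% of all genes were) and 0 at least 1.5-fold (0.696%). With propionate, 4 of 7 passed 1.2-fold (7.58%) and 1 passed 1.5-fold (0.776%). With butyrate, 4 of 7 passed 1.2-fold (6.4%) and 0 passed 1.5-fold (0.728%). All 7 were above control with acetate, all 7 with propionate and 6 with butyrate, as were 50.5%, 47.8% and 49% of all genes. None of the 7 was 1.2-fold lower in any of the 3 comparisons, against 5.48%, 5.69% and 5.47% of all genes. At shares this low, a count of 0 among 7 genes says little. The median ratio of the 7 was 0.17 with acetate, 0.39 with propionate and 0.29 with butyrate, where the medians of all genes were 0.0020, -0.0075 and -0.0029.

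The 5 genes at or above the floor gave medians of 0.25, 0.44 and 0.40. Among the 9410 genes at or above it, 4.65%, 4.55% and 4.87% were 1.2-fold higher with acetate, propionate and butyrate. As a guide to scatter, the log2 ratios of 1206 olfactory, vomeronasal, taste and trace amine receptor genes, which the liver does not use, had an SD across genes of 0.16, 0.18 and 0.17 in these comparisons. These receptors had a median level of 2.84, well below the class II genes, so their scatter need not be that of brighter probe sets. All 5 genes at or above the floor were more than 1 such SD above control with every acid, H2-Ab1 (0.17) and H2-DMa (0.17) only just so with acetate, and H2-Ob and Ciita were not with any.

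**Figure D2:**
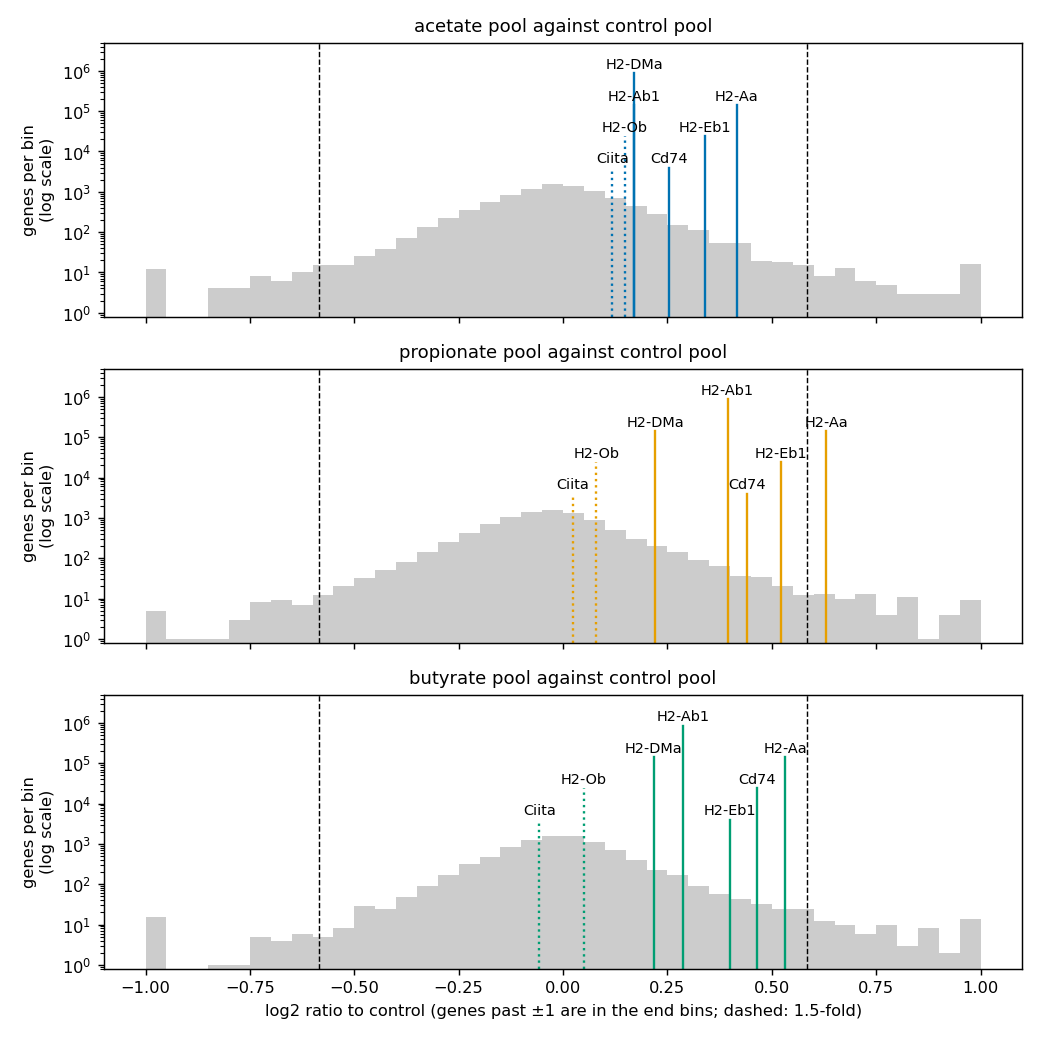
Number of genes (vertical axis, log scale) by log2 ratio to the control pool (horizontal axis) for the 9410 genes that reached the level floor, in 1 panel per acid; vertical lines mark the 7 class II genes, dotted for the 2 below the floor, and dashed lines mark 1.5-fold. The marked genes lie right of the bulk in the propionate panel apart from Ciita and H2-Ob, and only H2-Aa passes the dashed line there.

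Acetate, propionate and butyrate, whose chains have increasing numbers of carbons, were given at the same molar rate and time, so their pools could be set side by side in 3 pairs. In no pair did a class II gene differ by 1.2-fold. Propionate was above acetate for 5 of the 7, by 0.19 for Cd74, 0.21 for H2-Aa, 0.22 for H2-Ab1, 0.18 for H2-Eb1 and 0.050 for H2-DMa. In that pair 47% of all genes were higher by any amount, 5.08% were 1.2-fold higher and 4.5% were 1.2-fold lower. The first 4 of these differences exceeded the receptor SD of 0.16.

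Butyrate was above acetate by 0.21 for Cd74, and the classical chains differed by 0.12 (H2-Aa), 0.12 (H2-Ab1) and 0.058 (H2-Eb1), inside the receptor SD of 0.16. Ciita differed by -0.17. In that pair 6.84% of all genes were 1.2-fold higher and 7.73% lower. Between butyrate and propionate all 7 genes lay within the receptor SD of 0.18, from -0.12 for H2-Eb1 to 0.023 for Cd74, the latter turning to -0.0092 with cyclic loess. Shares of all genes at 1.2-fold were 6.22% higher and 7.42% lower. With 1 array per acid no interval can be put on these differences, so neither a difference nor its absence is shown. The butyrate pool held fewer mice than the others.

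For Cd74 the order was therefore butyrate, propionate, acetate and control from high to low, with the first 2 not separable by the receptor guide. For H2-Aa, H2-Ab1, H2-Eb1 and H2-DMa the order was propionate, butyrate, acetate and control. Propionate was the highest pool for 4 of the 7 genes, which was so for 22.6% of all genes. In this order propionate and butyrate, and butyrate and acetate, lay within the receptor SD for all 4 genes.

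**Figure D3:**
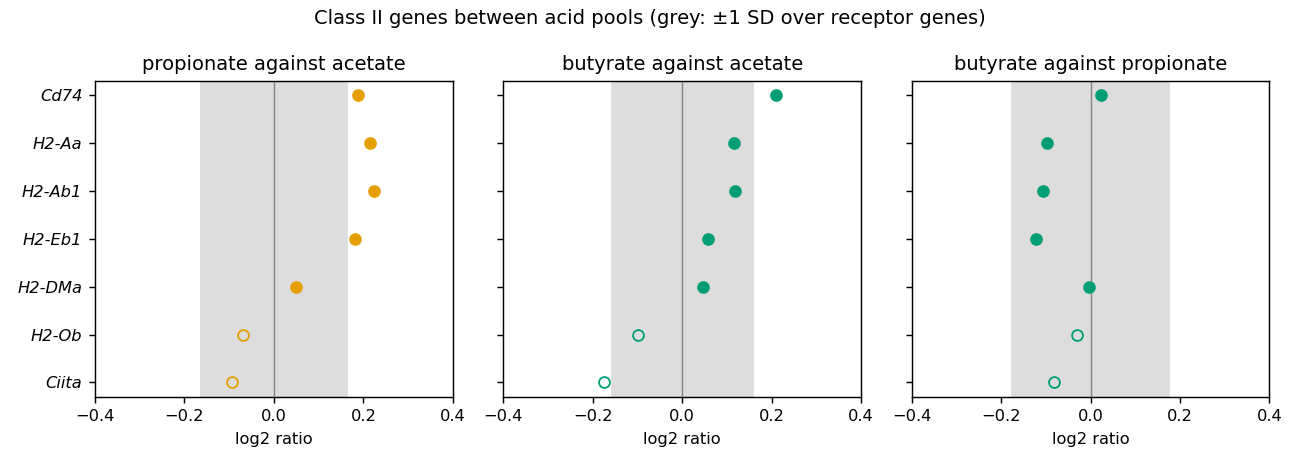
Log2 ratio between 2 acid pools (horizontal axis) for each class II gene (rows), with propionate against acetate, butyrate against acetate and butyrate against propionate in separate panels; filled points are genes that reached the level floor and the grey band is 1 SD over receptor genes. Cd74, H2-Aa, H2-Ab1 and H2-Eb1 lie right of the band for propionate against acetate, and all points lie inside it for butyrate against propionate.

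Other genes of the pathway are given by their place in it. Among 9 measured factors that act at class II promoters, the median ratio was -0.021 with acetate, -0.027 with propionate and 0.0036 with butyrate. Rfx5, a subunit of the X box complex, was -0.38 from control with acetate, and Nfya, a subunit of the Y box factor, was 0.39 with butyrate. No other ratio of these 9 genes to control passed 1.2-fold. Along the route from interferon gamma to Ciita, 11 genes had medians of -0.027, 0.056 and 0.16. Ifng itself was below the floor in all pools, at 3.52, 3.48, 3.62 and 3.71. Irf8, a factor of myeloid and dendritic cells, had ratios of 0.08, 0.24 and 0.26, and Spi1, which encodes PU.1, -0.29, 0.15 and 0.28. Socs1, an inhibitor of the pathway and below the floor in all pools, had 0.07, 0.05 and -0.31, the largest ratio of this list.

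Endosomal processing genes, 11 measured, had medians of 0.020, 0.090 and 0.074. None was 1.2-fold higher with acetate (6.73% of all genes were), 2 were with propionate (7.58%) and 3 with butyrate (6.4%). Ctss, the protease that trims the invariant chain in antigen-presenting cells, had ratios of 0.09, 0.37 and 0.50. Ifi30, a thiol reductase that opens disulfide bonds of antigens, had ratios of 0.10, 0.20 and 0.80 and was the only one past 1.5-fold, with butyrate. Lgmn, another endosomal protease, had ratios of 0.09, 0.28 and 0.35. For these 3 genes the butyrate pool was highest, as it was for Cd74. For H2-Aa, H2-Ab1, H2-Eb1 and H2-DMa the propionate pool was highest. Between butyrate and propionate these class II genes all lay within the receptor SD of 0.18, and Cd74 turned to -0.0092 with cyclic loess. These orders were not tested.

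Of 6 costimulation genes, 1, 3 and 3 were at least 1.2-fold higher with acetate, propionate and butyrate. The shares of all genes were 6.73%, 7.58% and 6.4%. Medians of the 6 were 0.077, 0.26 and 0.23. Cd86, a ligand of CD28 on presenting cells, was the only one at or above the floor, with ratios of 0.24, 0.40 and 0.51. Cd274, the checkpoint ligand PD-L1, had 0.07, 0.50 and 0.48. Of 5 genes that govern class II at the surface, Il10ra had ratios of 0.25, 0.18 and 0.41, and the medians were 0.15, 0.16 and 0.18. The further class II genes, H2-Ea, H2-Eb2 and H2-Oa, were below the floor in all pools, with medians of 0.062, 0.18 and 0.16.

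MHC class I presentation, which shows cytosolic peptides to CD8+ T cells, gave medians of -0.020, -0.0066 and 0.085 over 16 genes. None of them was 1.2-fold higher with acetate (6.73% of all genes were) or propionate (7.58%), and 3 were with butyrate (6.4%). Those were the peptide transporter gene Tap1 (0.52) and the immunoproteasome genes Psmb9 (0.33) and Psmb8 (0.27). With acetate and propionate Tap1 stood at -0.23 and -0.093.

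Position was also shared. Along chromosome 17, RefSeq lists H2-Oa, H2-DMa, H2-DMb2, H2-DMb1, H2-Ob, H2-Ab1, H2-Aa, H2-Eb1, H2-Eb2 and H2-Ea in that order, whereas Cd74 lies on another chromosome and Ciita on chromosome 16. Between the ends of that series lie 5 other protein-coding genes, Brd2, Psmb9, Tap1, Psmb8 and Tap2, all of them measured. Their medians were -0.028, -0.093 and 0.27 with acetate, propionate and butyrate. The numbers of them at least 1.2-fold higher were 0, 0 and 3, where the shares of all genes were 6.73%, 7.58% and 6.4%. The 3 were Tap1, Psmb9 and Psmb8, the same genes already counted in the class I list.

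**Figure D4:**
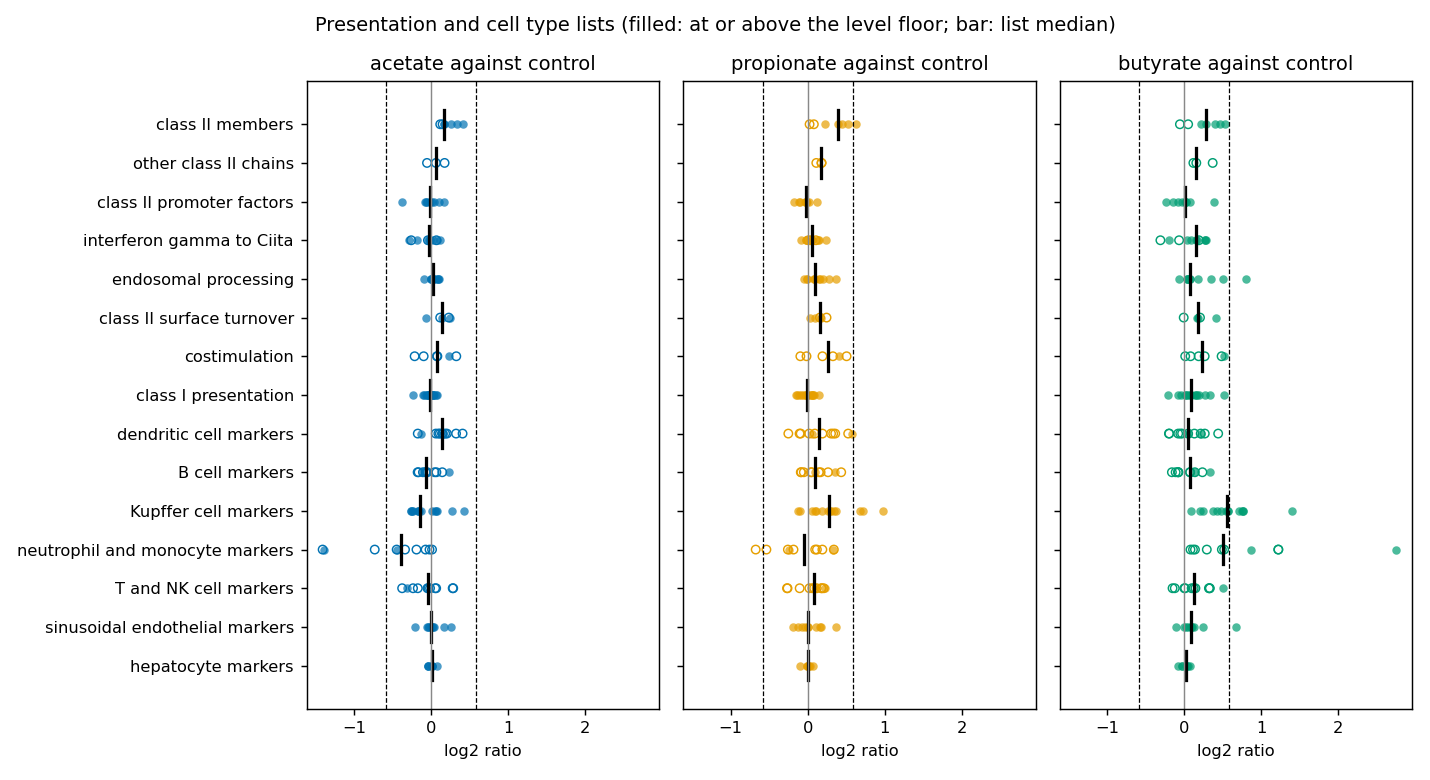
Log2 ratio to control (horizontal axis) of single genes (points) in lists for antigen presentation and for cell types (rows), with 1 panel per acid; filled points are genes that reached the level floor, bars are list medians and dashed lines mark 1.5-fold. The class II median is right of 0 in each panel (0.17, 0.39 and 0.29), while the Kupffer cell median is at -0.15, 0.28 and 0.55.

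Cells that carry class II differ in number between livers, and in tissue RNA a change in the number of cells of a type cannot be told apart from a change in RNA per cell. Values of their markers are given here beside those of the class II genes. Kupffer cell markers (14 measured, all at or above the floor) averaged 8.65, 8.60, 8.95 and 9.21 in the control, acetate, propionate and butyrate pools. With acetate 6 of 14 were above control (50.5% of all genes were) and the median was -0.15. With propionate the values were 12 of 14 (47.8%) and 0.28, and with butyrate 14 of 14 (49%) and 0.55. Marco, a scavenger receptor, had ratios of -0.24, 0.98 and 1.40, and the macrophage surface protein gene Adgre1 -0.18, 0.72 and 0.76. Of the markers of resident Kupffer cells, Timd4 had -0.26, 0.09 and 0.70 and Clec4f -0.25, -0.10 and 0.09. Lyz2 (0.43, 0.68 and 0.75) and Cd68 (0.27, 0.34 and 0.76) were the 2 of 14 markers at least 1.2-fold higher with acetate (6.73% of all genes were).

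Of 12 dendritic cell markers measured, 10, 9 and 7 were above control, as were 50.5%, 47.8% and 49% of all genes. The 12 averaged 4.52, 4.65, 4.69 and 4.59, with medians of 0.15, 0.14 and 0.048. Among them 10 were below the floor in all pools, including Itgax (0.41, 0.36 and 0.05), Flt3 (0.32, 0.09 and 0.13) and Zbtb46 (0.06, 0.33 and -0.08). Ccr7, the receptor of migrating dendritic cells and of lymphocytes, had ratios of 0.15, 0.58 and 0.05, the propionate value lying just under 1.5-fold. Clec10a had 0.18, 0.52 and 0.44, below the floor throughout. Clec9a, at or above the floor as Ccr7 was, had -0.13, 0.05 and 0.22. With propionate, Xcr1 (-0.25), Siglech (-0.11) and Cd209a (-0.09) were below control.

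Of 11 B cell markers measured, 4, 8 and 6 were above control, as were 50.5%, 47.8% and 49% of all genes. The 11 averaged 4.46, 4.44, 4.59 and 4.51, with medians of -0.068, 0.097 and 0.073. Below the floor in all pools were 9, among them Ms4a1 (-0.18, 0.04 and -0.16), Cd79a (-0.05, -0.08 and 0.08) and Pax5 (-0.07, 0.14 and 0.07). Ighm, also below the floor throughout, had ratios of -0.071, 0.43 and -0.081. The 2 markers at or above the floor were Cd79b (0.24, 0.35 and 0.33) and Bank1 (-0.11, 0.10 and 0.12). T and NK cell markers had medians of -0.036, 0.084 and 0.12 over 11 genes, and neutrophil and monocyte markers -0.39, -0.044 and 0.50 over 10. Of the latter, Ngp (2.75), S100a8 (1.22), Ltf (1.22) and S100a9 (0.86) were at least 1.5-fold higher with butyrate. Mpo (-1.41), Ngp (-1.39) and Elane (-0.73) were at least 1.5-fold lower with acetate, as was Mpo (-0.68) with propionate. The mean levels of S100a8, Ltf, Elane and Mpo over the pools were below the floor. Sinusoidal endothelial markers had medians of 0.0023, 0.0041 and 0.091 over 10 genes, with Lyve1 at 0.67 with butyrate, and hepatocyte markers 0.0046, 0.0014 and 0.028 over 7. The hepatocyte markers averaged 13.03 to 13.04 in all pools, so defining markers of the labelled tissue were high.

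The remaining lists concern other tissues and stroma. Stellate cell markers had medians of 0.34, 0.25 and 0.12, cholangiocyte markers 0.14, -0.20 and 0.20, intestinal epithelium 0.10, -0.057 and 0.36, skeletal muscle -0.090, 0.15 and -2.32, and pancreatic acini -0.90, -0.65 and -0.35. At least 1.5-fold from control were Col3a1 (0.72) and Col1a1 (0.66) of the stellate list with acetate, and Epcam (0.64) of the cholangiocyte list with butyrate. The same held with butyrate for Muc2 (2.98), Lypd8 (2.97), Car1 (1.90) and Slc26a3 (1.23) of the intestinal list. Slc26a3 was below the floor in all pools. Of 11 muscle markers, 11 were at least 1.2-fold lower with butyrate (5.47% of all genes were). Of 10 pancreatic markers, 10 were 1.2-fold lower with acetate (5.48%), 10 with propionate (5.69%) and 8 with butyrate (5.47%). The part of any cell type in the class II values was not tested.

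The genes with the most similar profile were sought by Euclidean distance between the 4 pool values, each gene centred on its mean, and the mean centred profile of the 5 class II genes at or above the floor. That profile was 0.27, 0.44 and 0.38 above control with acetate, propionate and butyrate. Of 9405 other genes at or above the floor, the 5 nearest were Prex1 (distance 0.049), Dock2 (0.052), Stk17b (0.054), Krtap3-1 (0.057) and Cd79b (0.062). Prex1 had ratios of 0.21, 0.42 and 0.38, and Dock2 0.22, 0.46 and 0.38, both encoding activators of Rac GTPases in leukocytes. Krtap3-1, which encodes a keratin-associated protein, had 0.22, 0.41 and 0.30. Control levels of Prex1 (5.75), Dock2 (5.85), Krtap3-1 (5.55) and Cd79b (5.59) lay close to the floor of 5.55. Cd74 lay 0.079 from the mean profile, H2-Ab1 0.080, H2-Eb1 0.067, H2-Aa 0.14, H2-DMa 0.16, H2-Ob 0.30 and Ciita 0.37. Over 4 pools such likeness is a description.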

How the data were processed

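The deposited values are log2 expression per probe set on 4 arrays. The authors made them with RMA, a method of background correction, quantile normalization and probe summary, per the submitters' processing notes, with no version or settings given in the sources used here. Per the labels, RNA was pooled at 500 ng per mouse and RNA integrity numbers were above 8. Array medians were 5.11 to 5.12. Making the distributions alike hides a shift of all genes.

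Of 35556 probe sets, 21218 had 1 symbol, 1881 several and 12457 none in GEO's platform annotation. Probe sets of a symbol were averaged to 18820 genes. A ratio is the difference of 2 arrays' log2 values. The 6 comparisons had 1 array a side, so no test was made and the number of arrays limits the precision. The counting was tested on simulated data. Sequences are RefSeq's (GRCm38.p6). The members and the 20 gene lists were chosen with earlier results of these data known. Named are the 7 genes, the 5 nearest profiles and up to 5 genes a list, from those with the largest ratios to control or past 1.5-fold. Muscle and pancreas are given by counts only. Defining markers, and some markers at or above the floor or on the other side of control, were chosen after their values were seen. Alternatives were cyclic loess (limma 3.58.1), the probe set of highest mean, the other pools' mean as reference, genes at or above the floor, and folds of 2 and of 0.32 on the log2 scale. Python 3.11.15 and pandas 2.3.3 were used.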

Additional observations from a re-analysis of the deposited data

Results flagged for a closer look

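Values that lay on opposite sides of the control pool in 2 acid pools are given here. For lists, only medians that also lay at least 1 receptor SD apart are given. With 1 array per pool none of these differences was tested, and all rest on the same control array. Ciita, below the level floor, was 0.12 above control with acetate and -0.057 from it with butyrate, a difference of -0.17, and the difference between butyrate and propionate was -0.081. The median over genes from interferon gamma to Ciita was 0.18 higher with butyrate than with acetate. The B cell marker median was 0.17 higher with propionate than with acetate. The Kupffer cell marker median was -0.15 with acetate, and those with propionate and butyrate were 0.42 and 0.70 above it. The neutrophil and monocyte marker median with butyrate was 0.89 above that with acetate and 0.55 above that with propionate. The cholangiocyte median differed by -0.34 from acetate to propionate and by 0.40 from propionate to butyrate, and the intestinal epithelium median by 0.41 from propionate to butyrate. The skeletal muscle median differed by 0.24 from acetate to propionate and by -2.47 from propionate to butyrate.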

How the results depend on the processing

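Cyclic loess and the restriction to genes at or above the floor kept the direction of all 6 class II medians and all 6 counts past 1.5-fold. The largest move of a single gene's ratio under loess was 0.047. Choosing the probe set of highest mean changed nothing, as each gene has 1. Against the mean of the other 3 pools in place of control, the medians were 0.028 with acetate, 0.20 with propionate and 0.099 with butyrate, and the count past 1.5-fold with propionate was 0 in place of 1. There Cd74 and H2-Ab1 stood at -0.049 and -0.058 with acetate and H2-Ob at -0.026 with butyrate. That reference holds 2 acid pools, which lowers a ratio shared by the acids. With the line lowered to 0.32 on the log2 scale the counts were 2, 4 and 3 with acetate, propionate and butyrate, and at 2-fold the propionate count was 0. No paired analysis was possible because each group has 1 array. Values of H2-Ob and Ciita, near background, limit what can be read from them.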
